A study of Mus musculus with 6 samples.

Results

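Gata4, Gata6, Mef2a, Mef2c, Mef2d, Hdac4, Hdac5, Hdac9, Camta2 and Srf encode the transcription factors and chromatin repressors through which the loaded heart muscle cell switches genes on or off. They were chosen by symbol from a table of read counts, and all 10 were found among its 24404 genes. The counts come from whole-heart RNA of 6 mouse samples, 3 of wild-type mice (WT-TAC) and 3 of miR-204-/- mice (KO-TAC). Every mouse had undergone transaortic constriction, an operation in which a band tightened around the aorta makes the left ventricle pump against a raised pressure, and hearts were collected 5 weeks later. No unoperated heart was analysed here, so each value compares the genotypes under load. The labels give neither the age, sex or strain of the mice nor how the microRNA was removed or in which cells, and they do not say whether a sample is 1 animal or a pool. P values therefore measure the spread between these samples. The series asks what miR-204 does in the hypertrophy that follows pressure overload.

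GATA4 and GATA6 are zinc-finger factors that drive cardiac structural and natriuretic peptide genes. The MEF2 proteins and SRF are MADS-box factors: MEF2 binds AT-rich sites in muscle genes, and SRF binds the CArG box of actin and immediate early genes. Class II histone deacetylases, here Hdac4, Hdac5 and Hdac9, bind MEF2 and hold its targets silent. Stress kinases phosphorylate them, 14-3-3 proteins carry them out of the nucleus, and MEF2 is then released. CAMTA2 is a co-activator of the cardiac factor NKX2-5 that class II deacetylases also restrain. Much of this control acts on proteins, on their phosphorylation and location, and a count of transcripts does not measure it.

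The microRNA that KO-TAC hearts lack and the places where its seed could pair with these transcripts are shown first. A microRNA acts on transcripts that pair with its seed. The mature miR-204-5p, from RefSeq on GRCm38.p6, lies on the plus strand at chr19:22750610-22750631, and capitals mark its seed, bases 2 to 8.
miR-204-5p: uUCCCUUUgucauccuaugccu
The longest annotated 3' UTR of each gene (GENCODE M21) was searched for AAAGGGA, the reverse complement of that seed, on the transcript strand. It occurred once each in Mef2a, Mef2c and Hdac4. That is 3 of 10 genes, against 2112 of 11692 tested genes with a 3' UTR (18.1%), and the lengths of the 3' UTRs were not matched. The sites lie in the 3' UTR at chr7:67233234-67233240 on the minus strand for Mef2a, chr13:83663246-83663252 on the plus strand for Mef2c and chr1:91933239-91933245 on the minus strand for Hdac4. Capitals mark the match in the stretch around each.
Mef2a: aaatatctgtagggAAAGGGAtctttttc
Mef2c: aaggaaaggaaaggAAAGGGAaaaaaaag
Hdac4: gctctcttgagtacAAAGGGAcagcaggc
In Mef2c alone of these 3 the match is followed by an A, the base that strengthens a seed site. Shorter matches, to bases 2 to 7 alone, were also present in Mef2d (2), Hdac9 (1) and Srf (1). Mef2c and Hdac4 had 4 each, the longer match included. A match is a description of the letters and does not show that the microRNA binds there. Matches to the seed of the other arm, miR-204-3p, were not searched.

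Motifs of the factors were also looked for in the promoters of the 10 genes. RefSeq promoters of GRCm38.p6, 250 bases before to 50 after a gene's start, were found for 8 of the 10 genes, 12 promoters in all, and Gata4 and Gata6 had none in the table. They were searched on both strands for the CArG box, for the MEF2 motif and for the GATA motif AGATAA. None of these motifs overlapped another in these promoters. The CArG box occurred in 1.63% of all 32851 promoters and, among the 12, in that of Srf, the gene of the factor that binds it. There were 2 matches there, beginning 82 and 62 bases before the start, in capitals in the promoter at chr17:46556113-46556412 on the minus strand.
Srf: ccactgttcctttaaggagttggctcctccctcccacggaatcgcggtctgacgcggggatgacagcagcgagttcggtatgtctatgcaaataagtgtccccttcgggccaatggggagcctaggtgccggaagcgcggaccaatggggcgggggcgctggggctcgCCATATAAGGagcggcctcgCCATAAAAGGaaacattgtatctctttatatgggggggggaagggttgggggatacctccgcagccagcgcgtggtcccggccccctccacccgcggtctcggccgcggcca
The MEF2 motif occurred in 3.19% of all promoters and in those of Mef2a and Hdac5, a MEF2 gene and a repressor of MEF2. The match began 2 bases before the start of Mef2a and 20 bases before that of Hdac5. Capitals mark it in windows of 60 bases at chr7:67372826-67372885 for Mef2a and chr11:102230158-102230217 for Hdac5, both on the minus strand.
Mef2a: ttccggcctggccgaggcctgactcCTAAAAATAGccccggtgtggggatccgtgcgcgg
Hdac5: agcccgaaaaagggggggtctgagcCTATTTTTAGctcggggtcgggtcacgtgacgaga
AGATAA was in 0 of the 12 promoters and in 11.2% of all promoters.

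None of the 10 genes was called changed between KO-TAC and WT-TAC, and in each the libraries of the genotypes overlapped. Libraries held 6411538 to 8571737 counts, and the 10 genes had 202 to 1894 counts in each, enough for all of them to pass the filter on low counts. Levels below are CPM on library sizes scaled by TMM, edgeR's trimmed mean of M values. CPM is a gene's share of the scaled library and is corrected for depth and not for gene length. Fold changes are log2 of KO-TAC over WT-TAC, and adjusted p values are Benjamini-Hochberg values over all 12487 tested genes from the quasi-likelihood test of edgeR. In that test 0 of 10 genes passed an adjusted p of 0.05, against 0.024% of all tested genes, and 0 of 10 had an unadjusted p under 0.05, against 2.93%. DESeq2 and limma-voom also called 0 of the 10. Groups that did not overlap in CPM were found for 0 of 10 genes, against 7.98% of all tested genes. One column of the table has a name that disagrees with the labels: it carries the library index of KO-TAC replicate 3 and the leading number of WT-TAC replicate 3, which has a column of its own. It was taken as KO-TAC replicate 3 by its index. The counts of Mir204 do not check the genotypes, since it is listed at 0 in all 6 libraries. With this column taken as KO-TAC, the groups did not overlap for H2-Aa, H2-Ab1, H2-Eb1, H2-K1 and Glo1, among the 7.98% of tested genes. Which mouse the column holds was not tested further, and every KO-TAC value with it is subject to that doubt. Without it 0 of the 10 genes were called and 0 had an unadjusted p under 0.05. Log2 fold changes were then 0.09 for Gata4, 0.07 for Gata6, −0.24 for Mef2a, −0.08 for Mef2c, −0.10 for Mef2d, −0.27 for Hdac4, −0.0025 for Hdac5, −0.07 for Hdac9, 0.12 for Camta2 and 0.31 for Srf. Those of Mef2d, Hdac5 and Hdac9 had the other sign with all 6 libraries.

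**Figure D1:**
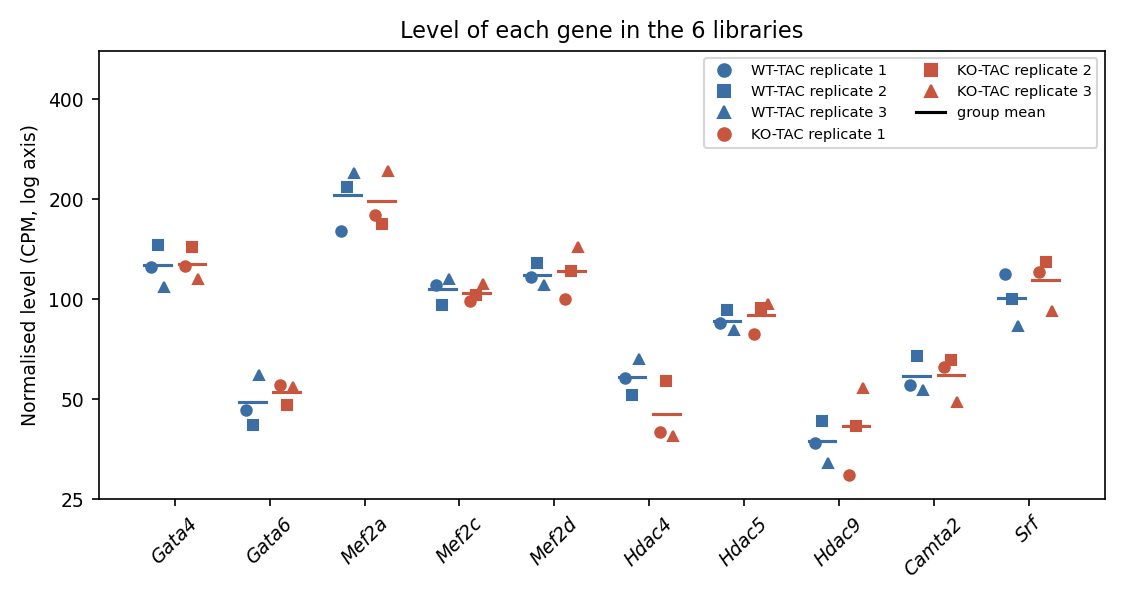
Normalised level of each of the 10 genes in each library (CPM, log axis), with WT-TAC in blue, KO-TAC in red, a marker shape per replicate and a bar at the group mean. In each gene the red and blue points overlap, and Hdac4 has 2 KO-TAC points, at 39.9 and 38.9 CPM, below all WT-TAC points.

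Gata4 stood at closely similar levels in hearts of either genotype. Its gene lies on chromosome 14 from 63198922 to 63271692 (GRCm38, GENCODE M21, as for all genes below). It had 125, 146 and 109 CPM in WT-TAC replicates 1 to 3 and 126, 144 and 115 in KO-TAC replicates 1 to 3. The range of WT-TAC contained that of KO-TAC. Mean levels of 127 ± 18.4 CPM for WT-TAC and 128 ± 14.8 CPM for KO-TAC (SD, n = 3) gave a log2 fold change of 0.02 ± 0.18 (SE), and its adjusted p was 0.999. The 95% interval of the fold ran from 0.769 to 1.33.

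Gata6, the second GATA factor of heart muscle and also of vessels, had 46.6, 42.0 and 59.2 CPM in WT-TAC and 55.1, 48.0 and 54.5 in KO-TAC. All KO-TAC values lay within the range of WT-TAC. The log2 fold change was 0.09 ± 0.20, with an interval of the fold from 0.794 to 1.43. The gene lies on chromosome 18 from 11052064 to 11085635. Per kilobase of exon, Gata4 exceeded Gata6 in all 6 libraries, by 3.08 to 5.79 times in WT-TAC and 3.51 to 5.01 times in KO-TAC. That ratio averaged 4.45 ± 1.35 for WT-TAC and 4.11 ± 0.79 for KO-TAC (SD, n = 3), a difference smaller than its spread, and with the longest transcript as gene length it was 2.97 ± 0.91 and 2.74 ± 0.53.

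The MEF2 genes also differed by less than their spread. Mef2a, on chromosome 7 from 67231163 to 67372858, had 160, 217 and 240 CPM in WT-TAC and 180, 168 and 244 in KO-TAC. The third replicate was the highest of each group, and WT-TAC replicate 1 was the lowest library of all. Its log2 fold change was −0.06 ± 0.21, and −0.24 without KO-TAC replicate 3.

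Mef2c, a MEF2 factor needed for the heart to form and active in endothelium as well, was the steadiest of the 10 genes. It had 110, 96.2 and 115 CPM in WT-TAC and 98.9, 103 and 112 in KO-TAC, on chromosome 13 from 83504034 to 83667080. All KO-TAC values lay inside the WT-TAC range. Its log2 fold change was −0.04 ± 0.17, and the range over the 6 libraries was 0.26 on the log2 scale, against a median of 0.91 for all tested genes.

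Mef2d, the MEF2 factor through which pressure load is known to drive remodelling in mice, had 117, 129 and 111 CPM in WT-TAC and 99.9, 122 and 144 in KO-TAC. The KO-TAC libraries reached both lower and higher than those of WT-TAC. Its log2 fold change was 0.04 ± 0.19, and −0.10 without KO-TAC replicate 3, on chromosome 3 from 88142372 to 88172086. Mef2b, the remaining MEF2 gene, had 1 count over the 6 libraries together and was not tested.

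Among the class II deacetylases Hdac4 had the largest difference of the 10 genes, in the direction of less transcript in KO-TAC, and it did not pass the test. Its gene lies on chromosome 1 from 91928779 to 92195699. It had 57.9, 51.6 and 66.2 CPM in WT-TAC and 39.9, 57.0 and 38.9 in KO-TAC. KO-TAC replicates 1 and 3 lay below every WT-TAC library, while replicate 2 lay inside their range. Mean levels of 58.6 ± 7.28 CPM for WT-TAC and 45.3 ± 10.2 CPM for KO-TAC (SD, n = 3) gave a log2 fold change of −0.37 ± 0.21 (SE), with an unadjusted p of 0.101 and an adjusted p of 0.999. The 95% interval of the fold ran from 0.565 to 1.06. Without KO-TAC replicate 3 the log2 fold change was −0.27. Adjusted p values over the alternative settings ran from 0.888 to 1.00. All 3 genes with a miR-204-5p seed site, Hdac4, Mef2a and Mef2c, had log2 fold changes below 0 with all libraries, and 0 of 3 were called. Over all 12487 tested genes 6221 were below 0. With single libraries left out, Mef2a ran from −0.24 to 0.063 and Mef2c from −0.11 to 0.022, so no shared direction is read from the 3. A link between the sites and these values was not tested.

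Hdac5, a kinase-responsive brake on MEF2 whose loss sensitises mouse hearts to load, had 85.1, 92.8 and 81.1 CPM in WT-TAC and 78.5, 93.9 and 96.9 in KO-TAC. It lies on chromosome 11 from 102194432 to 102230166. The groups shared most of their range, with a log2 fold change of 0.06 ± 0.18.

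Hdac9, which acts like Hdac5 in the loaded heart and also gives rise to a short form without the catalytic domain, was the most variable of the 10 genes. It had 37.0, 43.2 and 32.2 CPM in WT-TAC and 29.5, 41.7 and 53.9 in KO-TAC, on chromosome 12 from 34047580 to 34917095. The lowest and the highest library were both KO-TAC. The log2 fold change was 0.15 ± 0.24 and turned to −0.07 without KO-TAC replicate 3. Counts per gene symbol do not separate its short form from the full one.

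KO-TAC replicate 3 had the highest Hdac9 and the lowest Hdac4 of the 6 libraries. Per kilobase of exon the ratio of Hdac4 to Hdac9 was 1.45, 1.11 and 1.91 in WT-TAC and 1.25, 1.27 and 0.668 in KO-TAC. That of Hdac4 to Hdac5 was 0.378, 0.309 and 0.453 in WT-TAC and 0.282, 0.337 and 0.223 in KO-TAC. KO-TAC replicate 3 was the lowest library in both ratios and WT-TAC replicate 3 the highest. The ratio of Hdac4 to Hdac9 was below 1 in KO-TAC replicate 3 alone, and in both ratios the groups overlapped. For the 3 deacetylases summed over the 3 MEF2 genes summed, the ratio was 0.424, 0.395 and 0.370 in WT-TAC and 0.382, 0.446 and 0.360 in KO-TAC. Its means of 0.397 ± 0.027 and 0.396 ± 0.045 (SD, n = 3) differed by less than the spread of either group, and with the longest transcript as gene length they were 0.368 ± 0.037 and 0.369 ± 0.051.

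Camta2 had the smallest fold change of the 10. It had 55.4, 67.6 and 53.4 CPM in WT-TAC and 62.4, 65.7 and 49.1 in KO-TAC, on chromosome 11 from 70669463 to 70688105. The log2 fold change was 0.01 ± 0.20 with an interval of the fold from 0.750 to 1.35.

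Srf, on chromosome 17 from 46548329 to 46556175, had the largest difference in the direction of more transcript in KO-TAC. It had 119, 100 and 83.4 CPM in WT-TAC and 121, 130 and 92.4 in KO-TAC. KO-TAC replicates 1 and 2 lay above all WT-TAC libraries, the first by little, while KO-TAC replicate 3 was lower than WT-TAC replicates 1 and 2. The means were 101 ± 17.9 and 114 ± 19.5 (SD, n = 3), and the log2 fold change of 0.18 ± 0.20 (SE) had an adjusted p of 0.999. Without KO-TAC replicate 3 it was 0.31.

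**Figure D2:**
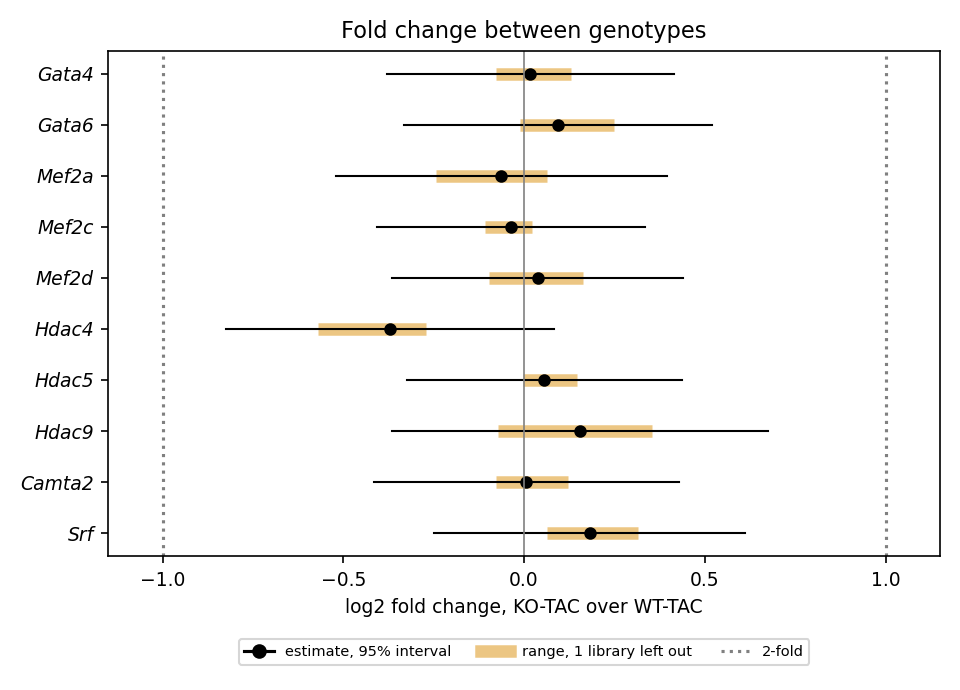
Log2 fold change of each of the 10 genes, KO-TAC over WT-TAC, with its 95% interval as a black line and the range of estimates with 1 library left out as a yellow bar. All intervals include 0 and end inside the dotted lines at a 2-fold change, and the yellow bars of Hdac4 and Srf stay on one side of 0.

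The size of change that these data leave possible was estimated for each gene alone, with all 6 libraries. Intervals of the log2 fold change, at 95% and with the degrees of freedom of the quasi-likelihood test, ran at their widest from −0.82 for Hdac4 to 0.68 for Hdac9, folds of 0.565 and 1.60. In all 10 genes the interval lay within a 2-fold change either way, and in 7 of 10 within 1.5-fold. These limits depend on the libraries used: without KO-TAC replicate 2 the log2 fold change of Hdac4 was −0.57 ± 0.225 (SE). The median log2 fold change of the 10 genes was 0.03 and its median size without sign 0.06, against 0.0012 and 0.19 over all tested genes. The median of the 10 was −0.0019 with no scaling beyond library size and −0.037 without KO-TAC replicate 3. The genes ranged over 0.26 to 0.86 on the log2 scale across the 6 libraries, with a median of 0.51. Counting error alone, in a library, was 2.3% to 7.04% of the level, whereas the coefficient of variation within a group was 6.14% to 29.3%. In each of the 10 genes the spread between samples of a group was larger than the counting error. The width of the intervals also rests on the variance that the fit shares across all tested genes. In whole-heart RNA fewer cells of a type and less RNA per cell cannot be told apart.

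Per length (RPKM, the CPM divided by the kilobases of exon), Srf and Gata4 were the most abundant of the 10 transcripts and Hdac4 and Hdac9 the least. Over the 6 libraries Srf had a mean of 37.2 RPKM (28.8 to 44.8) and Gata4 of 32.6 (28.0 to 37.4), ranges that overlapped. Mef2d followed at 20.1 (16.7 to 24.0), below every value of Gata4. Mef2a at 13.7 (10.9 to 16.6), Camta2 at 11.3 (9.42 to 13.0) and Hdac5 at 10.0 (8.94 to 11.04) each overlapped the next in order. Gata6 had 7.82 (6.45 to 9.09) and Mef2c 6.74 (6.12 to 7.34), again overlapping. Hdac4 at 3.28 (2.46 to 4.18) lay below all values of Mef2c and overlapped Hdac9 at 2.70 (2.01 to 3.68). The order in the middle rests on the length used, since the exons of Mef2a and Mef2c together far exceed any one transcript. With the longest transcript Mef2a stood at 36.4 RPKM, next to Gata4 at 37.5, and Mef2c at 16.9, next to Hdac5 at 16.3, while Srf (41.1) stayed first and Hdac4 (6.41) and Hdac9 (4.98) last.

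**Figure D3:**
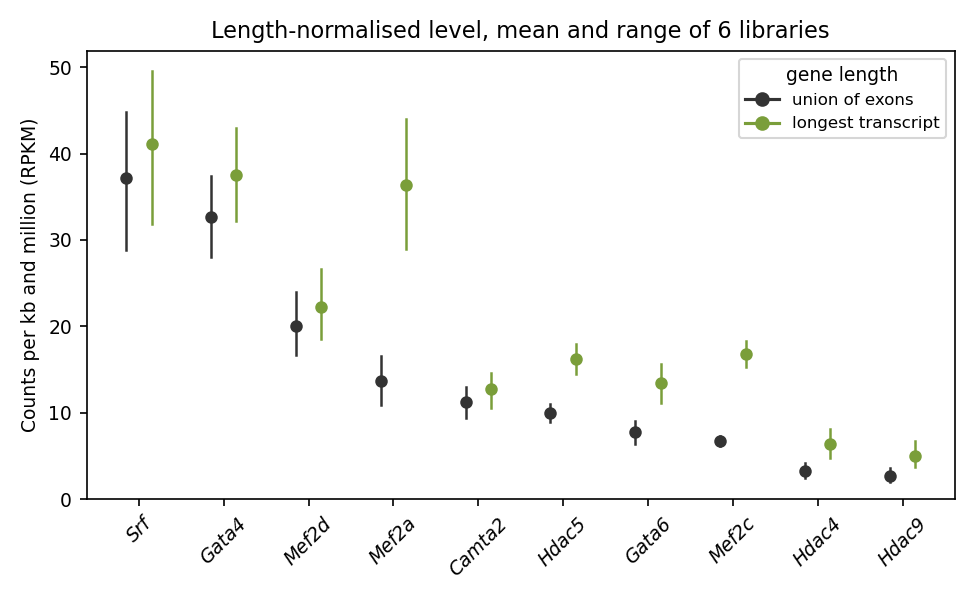
Length-normalised level of each of the 10 genes (RPKM, linear axis), as the mean over the 6 libraries with lines from the lowest to the highest library, for the union of exons in black and the longest transcript in green. Srf and Gata4 are highest and Hdac4 and Hdac9 lowest with either length, and Mef2a and Mef2c move most between them.

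Some reads of these genes may come from transcripts that overlap them. Annotated genes lie on the opposite strand within the span of Gata6, Mef2a, Mef2d, Hdac4, Hdac9 and Srf. The labels name a plain and a stranded library kit without saying which a sample had, so such reads cannot be told apart. Gata4, Mef2c, Hdac5 and Camta2 had no overlap on the opposite strand. On the same strand, annotated genes overlap Mef2a, Hdac4, Hdac5, Hdac9 and Srf, that of Hdac5 being the microRNA gene Mir8101.

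The genes around the regulators were taken from 8 lists with 85 genes outside the 10, of which 81 were tested, 32 higher and 49 lower in KO-TAC. None was called in edgeR, DESeq2 or limma-voom with all libraries and the filter on low counts. An unadjusted p under 0.05 was found for 3 of 81 (Abra and Xirp1 higher, Fos lower), or 3.7%, against 2.93% of all tested genes. Groups that did not overlap were found for 5 of 81 (Abra and Elk3 higher, Chrm2, Fos and Tagln lower), or 6.17%, against 7.98%. Both shares are near the background.

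No relative of the 10 genes passed the test. Of the family list, 5 of 9 genes were tested, with 2 higher, 3 lower and 0 called. Hdac7, the class II deacetylase of endothelium, had a log2 fold change of 0.10 ± 0.28, with 99.9, 65.8 and 43.4 CPM in WT-TAC and 89.4, 79.8 and 55.0 in KO-TAC. Camta1, the relative of Camta2, had −0.07 ± 0.21. Gata5, a GATA factor of endocardium, had 1 to 13 counts per library and was not tested. Among 8 class I deacetylases and corepressors, which share complexes with the class II enzymes, 3 were higher and 5 lower. Hdac1 stood at a log2 fold change of 0.27 ± 0.29, Hdac2 at −0.02 ± 0.24, Hdac3, the catalytic partner of class II enzymes, at 0.12 ± 0.22, and the corepressor Ncor1 at −0.01 ± 0.21.

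Partners of GATA4 were lower for 7 of 8 genes and higher for 1, with 0 called and a median log2 fold change of −0.07. Nkx2-5, a homeobox factor that binds DNA together with GATA4 and recruits CAMTA2, had 0.33 ± 0.20. Tbx5, a T-box partner, had −0.28 ± 0.25 and −0.08 without KO-TAC replicate 3. Zfpm2, which represses GATA4, had −0.22 ± 0.22 (−0.34 without that library), and the acetyltransferase Ep300 −0.03 ± 0.17. Of 17 genes for deacetylase kinases and 14-3-3 proteins, 5 were higher and 12 lower, with 0 called. Camk2d, the main cardiac isoform of the calcium/calmodulin-dependent kinase that targets HDAC4, had −0.06 ± 0.18. Prkd1, protein kinase D, had 0.04 ± 0.33, and Ywhae, which encodes a 14-3-3 protein, −0.09 ± 0.21.

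Abra, also called STARS, an actin-binding protein of striated muscle that frees the cofactors of SRF to enter the nucleus, stood apart among the cofactors of SRF. It is named after its values were seen. It had 39.0, 47.1 and 46.2 CPM in WT-TAC and 109, 101 and 52.0 in KO-TAC. All KO-TAC libraries lay above those of WT-TAC, replicate 3 by little. The log2 fold change was 0.98 ± 0.25, a fold of 1.97 with an interval from 1.35 to 2.88, and the unadjusted p of 0.00189 gave an adjusted p of 0.999 in edgeR. Over the alternatives that adjusted p ran from 0.0133 to 1.00. It passed in edgeR with every gene tested (no filter on low counts, 0.0133) and without KO-TAC replicate 3 (0.0309, at a log2 fold change of 1.24). DESeq2 gave 0.244.

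The other cofactors of SRF differed by less. Of the 10 on the list 7 were higher and 3 lower, with a median of 0.03. Myocd, the muscle-specific coactivator, had a log2 fold change of 0.03 ± 0.18. The related Mrtfa and Mrtfb, through which actin signals to SRF and which the table lists as Mkl1 and Mkl2, had 0.00 ± 0.35 and −0.12 ± 0.17, and Elk4, which joins SRF at the promoters of immediate early genes, 0.03 ± 0.19.

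Targets of the factors spread more widely than the 10 genes, and those of SRF most. The median size without sign was 0.13 for GATA4 targets and 0.13 for MEF2 targets, below the 0.19 over all tested genes. Of 13 SRF targets 5 were higher and 8 lower, with a median of −0.17, a median size without sign of 0.55 and 0 called. Acta1, skeletal actin, had 2277, 2117 and 1717 CPM in WT-TAC and 2963, 4314 and 1685 in KO-TAC, a log2 fold change of 0.55 ± 0.30, and 0.84 without KO-TAC replicate 3. As for Abra and Srf, KO-TAC replicates 1 and 2 were above all WT-TAC libraries and replicate 3 was not above them in Acta1. The smooth muscle gene Acta2 had 75.5, 92.8 and 64.0 CPM in WT-TAC and 66.2, 58.9 and 22.2 in KO-TAC, a log2 fold change of −0.66 ± 0.34. KO-TAC replicate 3 was the lowest library, and without it the value was −0.31. Fos, an immediate early gene, had 8.81, 13.9 and 4.79 CPM in WT-TAC and 4.53, 1.82 and 4.73 in KO-TAC, −1.32 ± 0.50, with an adjusted p of 0.999. Egr1, another immediate early gene, had −0.60 ± 0.64, with estimates from −0.97 to 0.34 as single libraries were left out.

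Acta2 moved with other markers of smooth muscle, 3 of which (Acta2, Tagln and Cnn1) are also on the SRF target list. All 6 markers of smooth muscle were lower and 0 were called, none was at 0 in any library, and their summed level was 307 to 454 CPM over the WT-TAC libraries and 160 to 335 over those of KO-TAC, lowest in KO-TAC replicate 3. An unadjusted p under 0.05 was found for 2 of these 6 (Myh11 and Lmod1), or 33.3%, against 2.93% of all tested genes, and groups that did not overlap for 3 of 6 (Myh11, Tagln and Lmod1), against 7.98% of all tested genes. Without KO-TAC replicate 3 log2 fold changes were −0.32 for Myh11, −1.13 for Lmod1 and −0.61 for Tagln, against −0.62, −1.50 and −1.06 with it. That of Cnn1 was then −0.32, against −0.81, and that of Smtn turned from −0.14 to 0.06. The part of these 6 markers in the values of SRF targets was not tested. Heart muscle markers summed to 62520 to 73230 CPM over the WT-TAC libraries and 55910 to 84160 over those of KO-TAC, with 3 of 6 higher. Endothelial markers, from cells that also express Mef2c and Hdac7, were higher for 5 of 6 genes with 0 called. Of the 6, 1 (Kdr) had an unadjusted p under 0.05 in edgeR and groups that did not overlap. That is 16.7%, against 2.93% and 7.98% of all tested genes. The endothelial markers summed to 704 to 877 CPM over the WT-TAC libraries and 818 to 1116 over those of KO-TAC. Their part in the values of Mef2c was not tested. Markers of fibroblasts, macrophages and pericytes were each higher for 4 of 6 genes, with 0 called. Groups did not overlap for 2 of the 6 pericyte markers (Rgs5 and Kcnj8, both higher), or 33.3%, against 7.98% of all tested genes.

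Of 11 GATA4 targets 6 were higher and 5 lower, and of 10 MEF2 targets 4 and 6. Nppa, which encodes a natriuretic peptide of the atria that also rises in loaded ventricles, had 7904, 2444 and 2668 CPM in WT-TAC replicates and 6603, 5033 and 311 in those of KO-TAC. Replicate 3 of KO-TAC stood far below the other 5 libraries. The log2 fold change was −0.12 ± 1.14, and 0.42 without that library. Nppb, the second natriuretic peptide gene, was likewise lowest there (129 CPM, against 202 to 1492 in the others), with 0.88 ± 0.97 from all libraries, 1.39 without that one and 0.10 to 1.47 over all single libraries left out. Several atrial markers were also low in that library: Myl4 had 59.0 CPM there and 357 to 796 in the others, and Myl7 had 32.4 and 90.2 to 199, whereas Kcnj3 had 105 there, inside the 48.1 to 226 of the others. All 5 tested atrial markers of 6 were lower with 0 called, and Bmp10, the sixth, was at 0 in 2 libraries and not tested. Without KO-TAC replicate 3 log2 fold changes were 0.05 for Myl7, 0.27 for Myl4, 0.09 for Sln, −0.70 for Kcnj3 and −0.67 for Nr2f2. Nr2f2 alone of the 5 had an unadjusted p under 0.05 (0.00265 in edgeR) and groups that did not overlap. That is 20% of the 5, against 2.93% and 7.98% of all tested genes. The 6 atrial markers summed to 726 to 1042 CPM over the WT-TAC libraries and 235 to 1194 over those of KO-TAC. Their part in the values of Nppa and Nppb was not tested. Slc8a1, the sodium-calcium exchanger, had −0.05 ± 0.20. For MEF2 the nuclear receptor Nr4a1 had −0.44 ± 0.45 (−0.78 to 0.36 with single libraries left out), the mitochondrial coactivator Ppargc1a 0.12 ± 0.22, and Ckm, muscle creatine kinase, 0.14 ± 0.22. Xirp1, an adaptor of cell junctions, had 461, 366 and 275 CPM in WT-TAC and 678, 683 and 372 in KO-TAC, a log2 fold change of 0.65 ± 0.26, and 0.89 without KO-TAC replicate 3. Its groups overlapped through KO-TAC replicate 3 and its adjusted p was 0.999. Like Abra, Xirp1 is named after its values were seen.

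**Figure D4:**
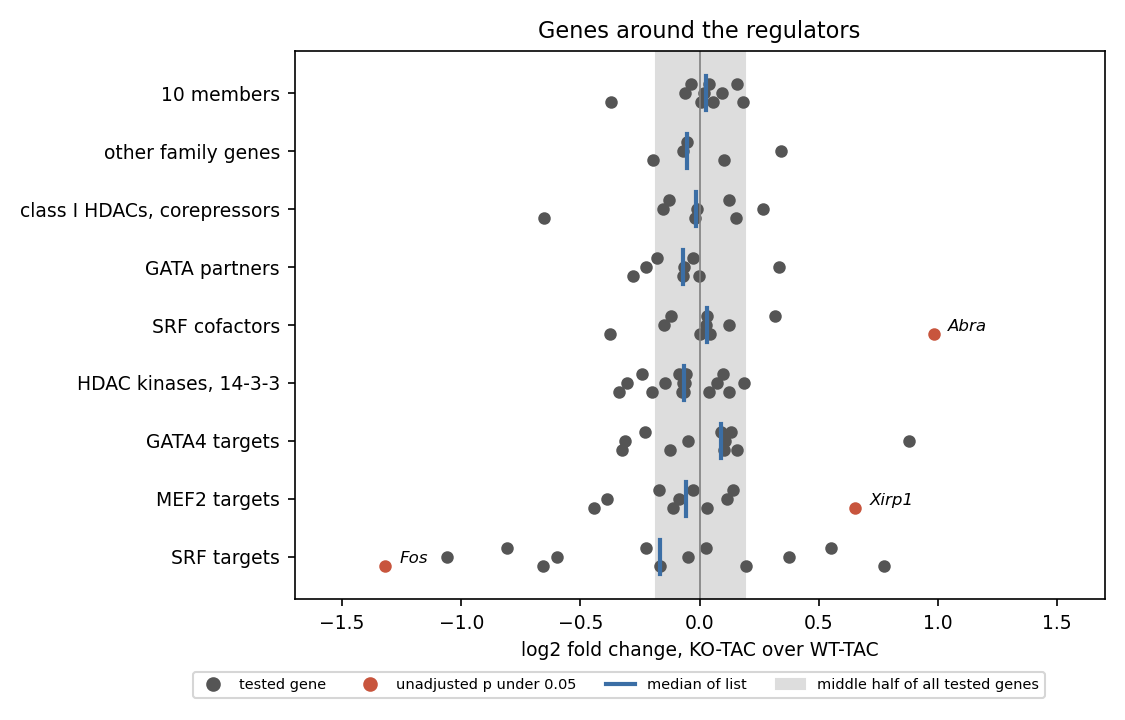
Log2 fold change, KO-TAC over WT-TAC, of every tested gene of the 10 and of the 8 surrounding lists, 1 point per gene, with a blue line at each list's median and a grey band over the middle 50% of all tested genes (−0.185 to 0.189). Points in red had an unadjusted p under 0.05. The 10 genes lie in the band except Hdac4, while SRF targets run from −1.32 to 0.77.

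For the 2 most variable of the 10 genes, the tested genes of most similar pattern were found by the root mean square difference of log2 CPM, each gene centred on its mean over the 6 libraries. For Hdac9 these were Rnf217 (0.07), Chd2 (0.08), Cyyr1 (0.08), Spty2d1 (0.09) and Hint2 (0.10). Chd2, a chromatin remodeller, had 151, 160 and 127 CPM in WT-TAC and 113, 148 and 188 in KO-TAC, lowest in KO-TAC replicate 1 and highest in replicate 3 as Hdac9 was. For Hdac4 they were Pvt1 (0.08), Zcchc17 (0.09), Tbrg4 (0.09), Wdr37 (0.10) and Grina (0.11). With 6 libraries and 12487 genes such likeness is a description of these libraries.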

How the data were processed

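RNA libraries of 6 mouse heart samples, 3 per genotype, were made with a plain or a stranded Illumina TruSeq kit, per the labels' protocols. The authors deposited a table of raw counts by gene symbol, not normalized, with 24404 rows, 6680 of them at 0 throughout. Tools listed in the submitters' processing notes, without their roles, are edgeR, Subread, HISAT2 2.1.0 and FastQC, and the builds GRCm38 and mm10.

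The test used edgeR 4.0.16 (R 4.3.3): filterByExpr with a minimum count of 10, TMM scaling, and a robust quasi-likelihood fit of genotype over all 6 libraries, with genes called at a Benjamini-Hochberg adjusted p under 0.05. Standard errors were derived from the fold change and the F statistic. Annotation is GENCODE M21 (GRCm38), matched by symbol. Alternatives were other scalings and filters, DESeq2 1.42.0, limma-voom (limma 3.58.1), the replicate block and each library left out. Of genes simulated with a 2-fold change, 38% of 100 were recovered among 12354 tested, and of those with 4-fold 100%, with 6 false calls. The simulation gave every gene the same dispersion, the median of the fit, and changed only genes above a set level. These shares therefore do not give the recovery in the real libraries, where dispersion differs by gene.

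The 10 genes, the lists around them and the markers were chosen with earlier results of these data known, as were the genes named, which come from fixed choices within each list and, where said, from their values. Sequences were read from RefSeq and GENCODE.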

Additional observations from a re-analysis of the deposited data

How the results depend on the processing

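None of the 10 genes was called under any of the scalings, filters, tools, the replicate block, an adjusted p under 0.1 or any left-out library. Hdac4 and Srf kept the sign of their log2 fold change in all of these, and Hdac4 alone had an unadjusted p under 0.05 in one, 0.0274 without KO-TAC replicate 2. Over all genes 3 were called, 21 with no filter on low counts, 16 with DESeq2, 0 with limma-voom (376 at an unadjusted p under 0.05) and 0 to 7 with a library left out. Of the surrounding genes 0 were called, 1 (Abra) with no filter, and 0 to 1 with a library left out, Abra again, without KO-TAC replicate 3. The labels do not say whether the replicate numbers pair the samples, and the counts do not settle it. Deviations of same-numbered samples from their group means correlated at 0.135, 0.011 and 0.257 (replicates 3, the highest of all 9 pairings). The other pairings ran from −0.223 to 0.146, and WT-TAC replicate 1 correlated best with KO-TAC replicate 2 (0.146). With the replicate block 6 genes were called in place of 3, 0 of the 10 among them. Some signs turned. With no scaling Gata4 was at −0.0094, Camta2 at −0.018, Elk4 at −0.00022 and Mkl1 at −0.0057. With quality weights in limma-voom Mef2d was at −0.045, Camta1 at 0.066, Elk4 at −0.045, Nppa at 0.066 and Mkl1 at −0.038. Mkl1 was also at −0.0034 with RLE, −0.0031 in DESeq2, −0.078 in limma-voom and −0.063 with the block. With 1 library left out log2 fold changes ran from −0.078 to 0.13 for Gata4, −0.010 to 0.25 for Gata6, −0.24 to 0.063 for Mef2a, −0.11 to 0.022 for Mef2c, −0.098 to 0.16 for Mef2d, −0.0025 to 0.15 for Hdac5, −0.072 to 0.35 for Hdac9 and −0.077 to 0.12 for Camta2. Among other genes they ran from −0.14 to 0.45 for Hdac7, −0.25 to 0.079 for Camta1, −0.25 to 0.13 for Hdac2, −0.017 to 0.25 for Hdac3, −0.24 to 0.13 for Ncor1, −0.079 to 0.014 for Ep300, −0.069 to 0.12 for Myocd, −0.46 to 0.23 for Mkl1, −0.13 to 0.11 for Elk4, −0.16 to 0.27 for Prkd1, −0.26 to 0.066 for Ywhae, −0.70 to 0.63 for Nppa, −0.13 to 0.065 for Slc8a1, −0.78 to 0.36 for Nr4a1, −0.087 to 0.32 for Ppargc1a, −0.029 to 0.25 for Ckm and −0.97 to 0.34 for Egr1. The causes of these shifts were not tested. In each of the 10 genes the spread between samples of a group was larger than the counting error.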
